A study of Harpegnathos saltator with 14 samples.

Results

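Worker-restricted gene models of the ant Harpegnathos saltator are those whose RNA was much more abundant in whole adult workers than in any other stage or in males. Levels were taken as L = log2(RPKM + 1), where RPKM is reads scaled to the length of the gene model and to the size of the library. A model was included when its identifier began with HSALG and the lower of its 2 worker values of L lay at least 1 above the highest L of the other 12 libraries. This distance, called the margin below, reached 1 in 99 of 20317 HSALG models (0.487%), out of 20755 gene models in the whole table. Of the 438 remaining models, whose identifiers begin with XLOC, 2 met the same condition and were not included. Since the worker values chose the models, every worker value given here is a description and carries no test.

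The 14 whole-body libraries comprised 2 of adult workers, 2 of males and 2 of each immature stage sampled, namely embryos, instar 1 larvae, instar 4 larvae, early pupae and late pupae. All animals came from plaster nests and were fed live crickets, and no group was labelled with a genotype or a treatment. The labels give no age for workers or males, no reproductive state for workers, no sex or caste for the immature stages, and no colony or number of animals behind a library. The p-values below therefore refer to the variation among libraries alone, and part of that variation may be technical. The deposited identifiers carry no gene names, and 0 of them matched the 14329 genes of the RefSeq gene table for assembly Hsal_v8.6, so models are given by identifier, with no function, and the whole-body label could not be set against tissue markers.

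Harpegnathos saltator is a ponerine ant whose workers hunt live prey, sting and care for the brood, and a worker may become an egg-laying reproductive called a gamergate. Males are haploid, take no part in foraging or brood care, and have no sting, which in ants is a modified egg-laying organ of females. Larvae are fed by the workers, and pupae do not feed.

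Male replicate 2 was the shallowest library, with 4273973 reads in genes, and late pupa replicate 2 the deepest, with 14217312. Across the 12024 HSALG models that reached an RPKM of 1 in 2 or more of the 14 libraries, the Pearson r of L between replicates was 0.986 in workers, 0.690 in early pupae and between 0.885 and 0.977 in the other 5 groups. Early pupae stood apart in this respect. The condition applied to each of the other groups in turn found 329 models for embryos, 127 for males, 74 for instar 1 larvae, 33 for late pupae, 13 for instar 4 larvae and 2 for early pupae.

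The 99 models took a large part of the worker transcriptome. They held 18.2% and 18.9% of the reads in genes of worker replicates 1 and 2. In males the same models held 3.58% and 3.79% of the reads, in late pupae 3.03% and 1.09%, in instar 1 larvae 1.21% and 1.78%, and in instar 4 larvae 0.675% and 1.30%. Early pupae stood at 0.671% and 0.434%, and embryos at 0.279% and 0.380%. The worker share did not rest on the 2 most abundant models, without which it was 13.6% and 13.1%. Of the 38 HSALG models with a mean worker RPKM of at least 1000, 12 belonged to this set. In whole bodies, more cells of a type and more RNA per cell cannot be told apart.

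**Figure D1:**
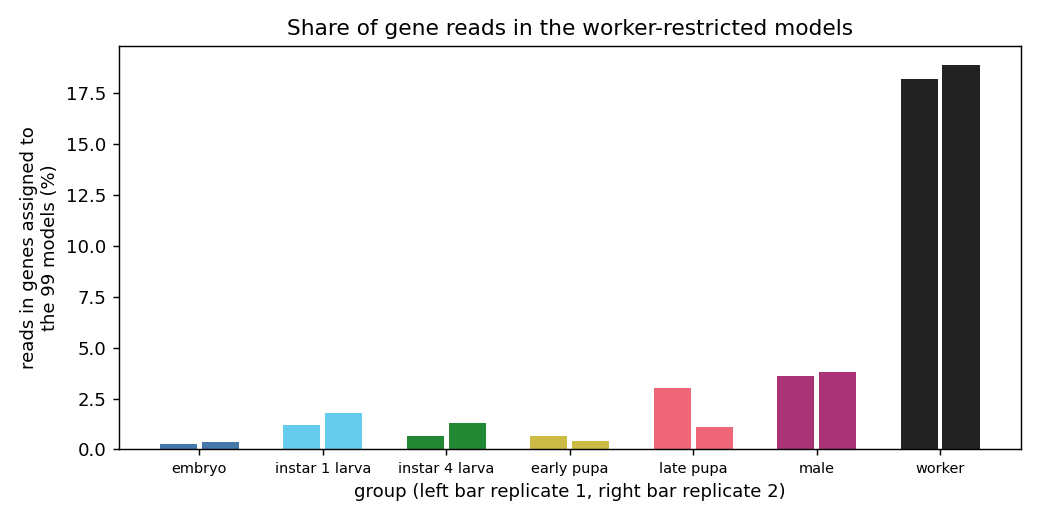
Share of the reads in genes that fell in the 99 worker-restricted models (vertical axis, percent) in each library, with replicate 1 on the left and replicate 2 on the right in each of the 7 groups. The worker bars stand at 18.2% and 18.9%, and the highest bar of any other group is 3.79% in male replicate 2.

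Worker levels spanned a wide range. The mean worker RPKM had a median of 75.6 over the 99 models, with quartiles of 24.3 and 204, a lowest value of 2.68 and a highest of 12178. It reached 10 in 88 models and 100 in 44. The margin had a median of 1.65, on a log2 scale where the limit was 1. A margin of at least 2 was found in 40 models, of at least 3 in 22, of at least 4 in 16 and of at least 6 in 6.

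Many of the models were detected outside workers as well, at lower levels. At least 1 other library reached an RPKM of 10 in 52 of the 99 models, and of 100 in 15. All 12 other libraries stayed below an RPKM of 1 in 15 models. Of these 99 models, 11 had at most 3 reads in each other library, and 2 had 0 reads in all of them.

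**Figure D2:**
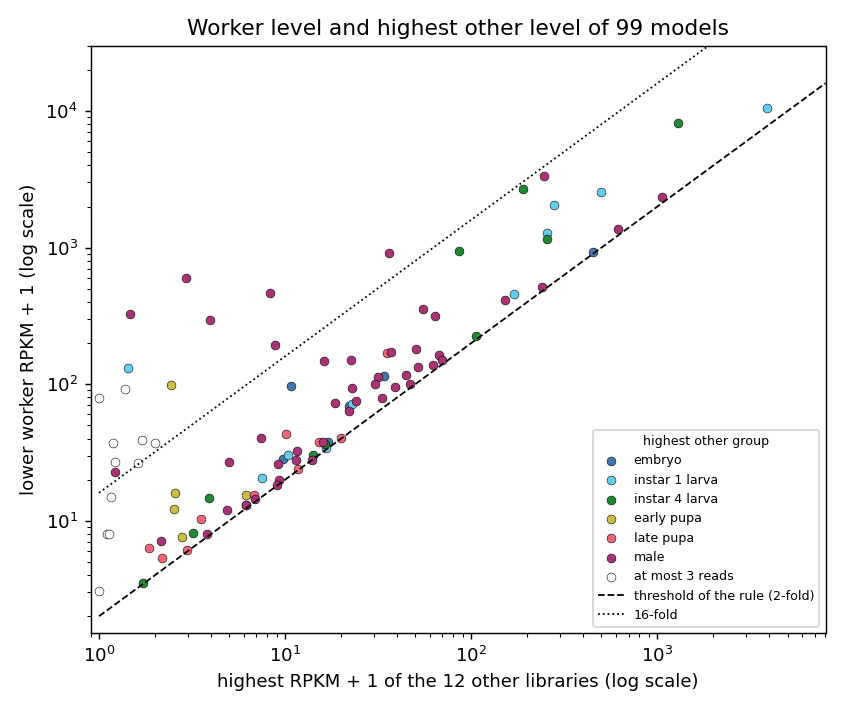
Lower worker level (vertical axis, RPKM + 1, log scale) against the highest level in the 12 other libraries (horizontal axis, RPKM + 1, log scale) for the 99 models, coloured by the group with the highest mean outside workers and open where no other library had more than 3 reads. The dashed line is the 2-fold limit that chose the models and the dotted line is 16-fold, which 16 models reach.

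HSALG004217.2 was the most abundant model in workers, at 10461 RPKM in replicate 1 and 13896 RPKM in replicate 2 (12178 ± 2429, SD, n = 2). Its RPKM was 2562 and 3857 in instar 1 larvae, 118 and 1094 in instar 4 larvae, and 565 and 383 in males. It was 1.03 and 0.735 RPKM in embryos, 3.39 and 2.12 in early pupae, and 1.26 and 0.667 in late pupae. The model was therefore high in workers, in both larval stages and in males, and low in the embryo and the pupa, with a worker mean 3.79 times that of instar 1 larvae.

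HSALG012385.1 came second in workers, at 8124 and 9800 RPKM (8962 ± 1185, SD, n = 2). Its next highest library was instar 4 larva replicate 2, at 1297 RPKM, and the other instar 4 library had 81.6 RPKM. Males had 98.8 and 231 RPKM, embryos 51.7 and 77.2, instar 1 larvae 36.3 and 23.3, early pupae 4.27 and 17.9, and late pupae 2.05 and 0.898. A single instar 4 library thus set its margin of 2.65.

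The largest margin, 7.78, belonged to HSALG023304.1. Workers had 460 and 323 RPKM (8692 and 3877 reads). Males had 0.473 and 0.128 RPKM, embryo replicate 1 had 0.0981 and early pupa replicate 2 had 0.0838, each of the last 3 from 1 read, and the remaining 8 libraries had 0 reads. Workers stood far above a background of single reads, with 5 reads in male replicate 1 as the highest count elsewhere.

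HSALG011967.1, with a margin of 7.68, had 610 and 601 RPKM in workers. Male replicate 1 had 1.94 RPKM from 11 reads, male replicate 2 had 0 reads, late pupa replicate 2 had 0.0676 RPKM from 1 read, and the remaining 9 libraries had 0 reads. Its signal outside workers thus lay almost wholly in 1 male library.

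Among the 11 models with at most 3 reads in each other library, HSALG023305.1 and HSALG023306.1 were the highest in workers. HSALG023305.1 had 145 and 91.9 RPKM in workers (1399 and 563 reads) and at most 2 reads in any other library. HSALG023306.1 had 128 and 78.3 RPKM in workers (741 and 287 reads) and 0 reads in all 12 others. Its lower worker value was at least 62.4-fold higher than the level that 3 reads would give in the other library where 3 reads weigh most, a floor per library that covers counting error only.

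HSALG010713.1, also with 0 reads outside workers, lay at the other end of the range, at 2.08 and 3.28 RPKM in workers. Those values resolved to 2 reads each, and with so few libraries above 0 the read number is known only up to a whole multiple. It was singled out after its values were seen, as the model with the lowest worker level.

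**Figure D3:**
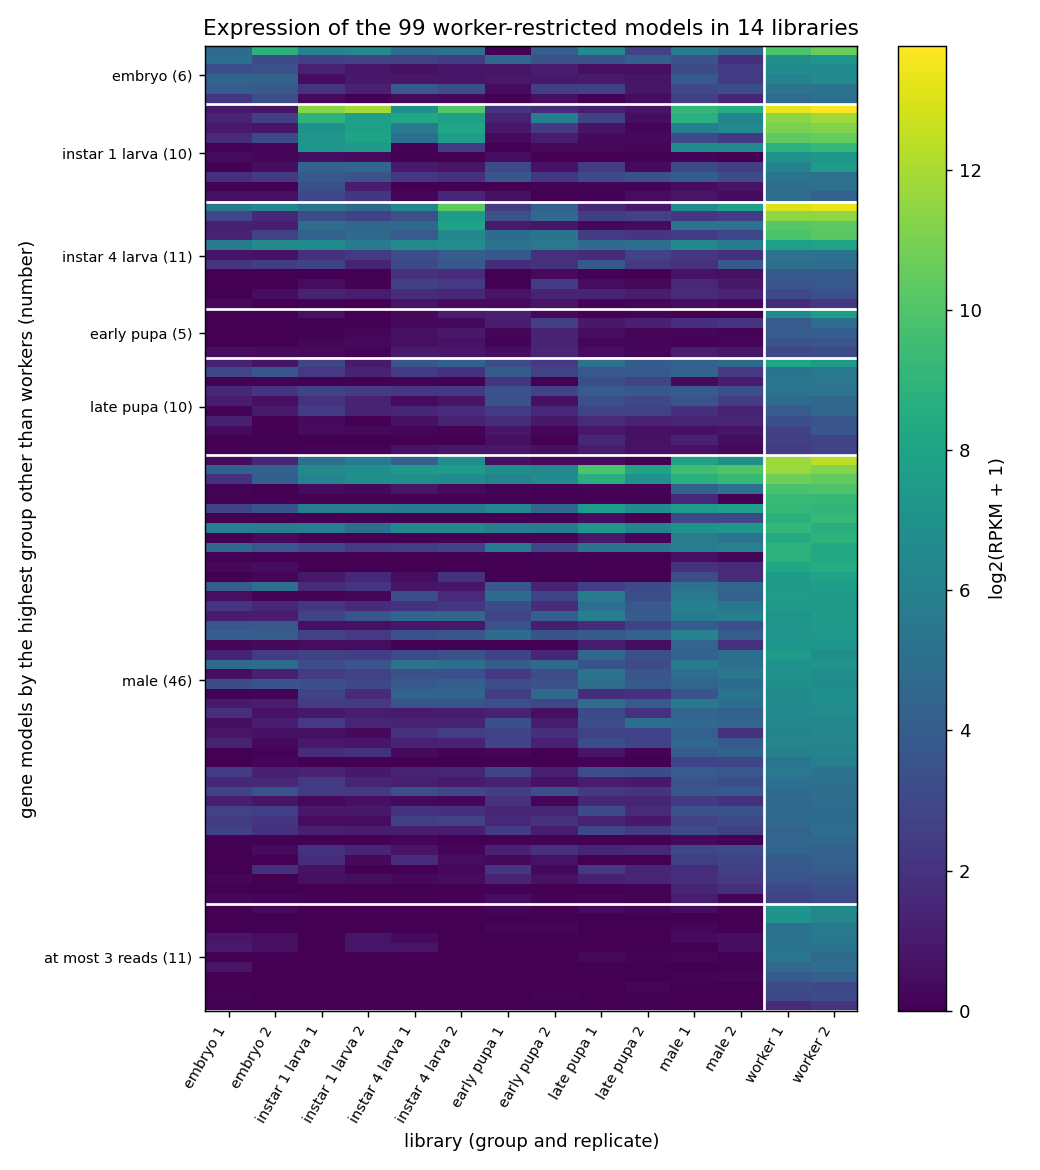
Level of each of the 99 models (rows; colour, log2(RPKM + 1)) in each of the 14 libraries (columns), with rows grouped by the group of highest mean RPKM outside workers and ordered by mean worker RPKM within each block. The block for males is the largest with 46 models, and 11 models have no more than 3 reads in any library outside workers.

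Males were the group most often next to workers. Of the 88 models with more than 3 reads in some other library, 46 had their highest mean RPKM outside workers in males (52.3%). Among the 12024 HSALG models above, males were highest of the same 6 groups in 15.0%. Instar 4 larvae came next highest for 11 models (12.5%, against 4.37%), late pupae for 10 (11.4%, against 10.4%), instar 1 larvae for 10 (11.4%, against 12.0%), embryos for 6 (6.82%, against 48.1%) and early pupae for 5 (5.68%, against 1203 of the 12024 models). Without early pupae the tally was 48 for males (54.5%, against 15.6%), 14 for instar 4 larvae, 10 each for instar 1 larvae and late pupae, and 6 for embryos. The ratio of the worker mean to the next highest group mean had a median of 5.04 over the 88 models, with quartiles of 3.30 and 9.13.

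The median over the 99 models of the mean RPKM was 6.71 in males. It was 1.65 in early pupae, 1.29 in late pupae, 1.17 in instar 1 larvae, 1.13 in instar 4 larvae and 0.653 in embryos, against 75.6 in workers. A mean RPKM of at least 10 was reached by 41 models in males, 24 in instar 4 larvae, 20 in late pupae, 17 in instar 1 larvae, 16 in early pupae and 13 in embryos. Both male libraries lay above all 10 libraries of the immature stages in 25 of the 99 models, as in 7.39% of the 12024 HSALG models. Set against only the 8 libraries of embryos, larvae and late pupae, the count was 27, against 8.08%. In 0 of the 99 models did both male libraries lie below all 10. The share of the 12024 models for this was not counted, and a model with 0 reads in any of the 10 could not meet it.

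HSALG020453.1 had the highest male level among the models next highest there. Males had 749 and 1056 RPKM, late pupae 921 and 261, instar 4 larvae 176 and 192, instar 1 larvae 95.6 and 106, early pupae 113 and 82.1, and embryos 18.7 and 18.9, against 3260 and 2347 in workers. Embryos were thus the lowest, instar 4 larvae lay above instar 1 larvae in both libraries, and males and late pupae overlapped.

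HSALG004956.2 led the models next highest in embryos, and that place rested on 1 library. Embryos had 27.5 and 452 RPKM, instar 1 larvae 71.0 and 86.8, instar 4 larvae 29.5 and 34.4, early pupae 0 and 16.7, late pupae 87.4 and 5.63, and males 51.3 and 26.0. Workers had 930 and 1588 RPKM, above every other library.

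HSALG002098.2 led those next highest in late pupae, at 34.4 and 15.3 RPKM there, 18.0 and 25.4 in males, 11.5 and 17.4 in instar 4 larvae, and 286 and 167 in workers. Late pupae and males overlapped. HSALG022430.1 led those next highest in early pupae, at 1.27 and 5.17 RPKM there and 2.78 and 3.38 in males, which also overlapped, against 14.5 and 29.1 in workers.

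The worker replicates lay close together for these models, which the condition on the lower worker value favours. In 86 of 99 the worker libraries differed by less than 1.5-fold in RPKM + 1, and in 3 by at least 2-fold. The widest differences were found in HSALG021306.1, at 71.1 and 191 RPKM, and HSALG002286.2, at 5.27 and 12.5 RPKM. Replicate 2 was the higher in 70 of the 99. These counts were not set against a share over all models.

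The instar 4 replicates disagreed for a group of the most abundant models. In 9 of the 99 models (9.09%) they differed by at least 4-fold in RPKM + 1, against 0.266% of the 12024 HSALG models. Replicate 2 was the higher in all 9. They were HSALG004217.2, HSALG012385.1, HSALG004219.2, HSALG001655.2, HSALG021057.1, HSALG023801.1, HSALG000628.2, HSALG005332.2 and HSALG020442.1, a set put together after the values were seen. In HSALG001655.2, for example, instar 4 replicates had 9.72 and 189 RPKM and all 10 other libraries outside workers had between 1.94 and 25.4 RPKM, against 2700 and 2789 in workers. Early pupae differed by at least 4-fold in 13 models (13.1%, against 9.87% of HSALG models), males in 5 (5.05%, against 2.07%) and late pupae in 4 (4.04%, against 1.49%). Embryos did so in 2 (2.02%, against 4.25%), instar 1 larvae in 1 (1.01%, against 1.05%) and workers in 0 (against 0.0832%).

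HSALG003625.2 lay just inside with a margin of 1.01, at 27.0 and 29.4 RPKM in workers and 11.6 and 12.9 in males. HSALG009408.2 also lay just inside with a margin of 1.01, at 26.7 and 22.7 RPKM in workers and 10.8 in male replicate 1. Just outside lay HSALG025160.1, with a margin of 0.963, at 14.7 and 12.6 RPKM in workers and 5.99 in male replicate 1, and HSALG001720.2, also at 0.963, with 9.03 and 8.49 RPKM in workers and 3.87 in instar 4 larva replicate 1.

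The models were of ordinary length. Lengths resolved from the RPKM had a median of 969 bases and quartiles of 453 and 1894.5, against 1032, 549 and 1839 in the 12024 HSALG models. The length was a multiple of 3 in 95 of the 99 (96.0%) and in 97.8% of the 12024, so most lengths in both were read as coding lengths. In identifier number, 17 models stood next to another of the 99 and formed 8 runs, of which the longest was HSALG023304.1, HSALG023305.1 and HSALG023306.1. Whether neighbouring numbers mean neighbouring genes is not given in the sources used here.

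HSALG007131.1 and HSALG007132.2, a run of 2 singled out after their values were seen, both resolved to 201 bases. They had 201 and 134 reads, and 211 and 158 reads, in the worker libraries. Whether their sequences are alike could not be checked. How the authors' counting split reads between models of like sequence is not given in the sources used here, so such pairs are uncertain.

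Tests were made only among the 6 groups that the choice of models did not contrast, over 12 libraries and the 12329 gene models that reached an RPKM of 1 in 2 or more of these. Log2(RPKM + 1) was fitted with limma, and a model was called at a Benjamini-Hochberg adjusted p below 0.05 over all 12329. Of the 99 models 78 passed this filter and 21 were too low outside workers to be tested. Of those 78, 8 reached an RPKM of 1 in libraries of a single group, 6 of them in males, and such models had to be high there to be tested at all. Models that varied over the 6 groups numbered 65 of 78, against 62.7% of all models tested. Without early pupae they numbered 70 of 78, against 77.6%.

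Between the embryo and the first larval instar the tested models went both ways, with more called higher than lower. In instar 1 larvae 20 of 78 were higher than in embryos, against 3.41% of all models tested, and 9 were lower, against 19.5% (22.9% in both directions). The median log2 difference was 0.10 over the 78 models and −0.55 over all models. Of the models that rose, 7 changed at least 16-fold in RPKM + 1, and the share of all models that did so was not counted.

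HSALG004217.2 rose most, from the levels near 1 RPKM given above, with a log2 difference ± SE of 10.71 ± 0.80 (adjusted p = 5.33e-05 by limma with Benjamini-Hochberg adjustment). HSALG020442.1 had 0.0848 and 0.182 RPKM in embryos and 150 and 168 RPKM in instar 1 larvae, a log2 difference of 7.14 ± 0.59 (adjusted p = 0.000131). HSALG010279.1 fell, from 21.0 and 20.1 RPKM to 0.358 and 0.937 RPKM (−3.73 ± 0.45, adjusted p = 0.00113). HSALG004508.2 fell from 11.2 and 13.1 RPKM to 0.477 and 0.549 RPKM (−3.11 ± 0.66, adjusted p = 0.011). In these 4 models the libraries of the groups did not overlap, which the choice of named models required here and in the comparisons below.

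Fewer models were called without any 1 of the 4 libraries compared, among the 78 and among all models alike. The median log2 difference was then between 0.00 and 0.34 over the 78, and between −0.70 and −0.43 over all models. The call on HSALG004508.2 was lost without instar 1 larva replicate 2. Median scaling of the libraries moved the median of all models to 0.29 and gave 29 of the 78 models higher, against 11.4% of all, and 4 lower, against 6.2%. Quantile normalization gave 19 higher, against 4.42%, and 3 lower, against 5.28%, so the low count of decreases was near the share over all models under both scalings.

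**Figure D4:**
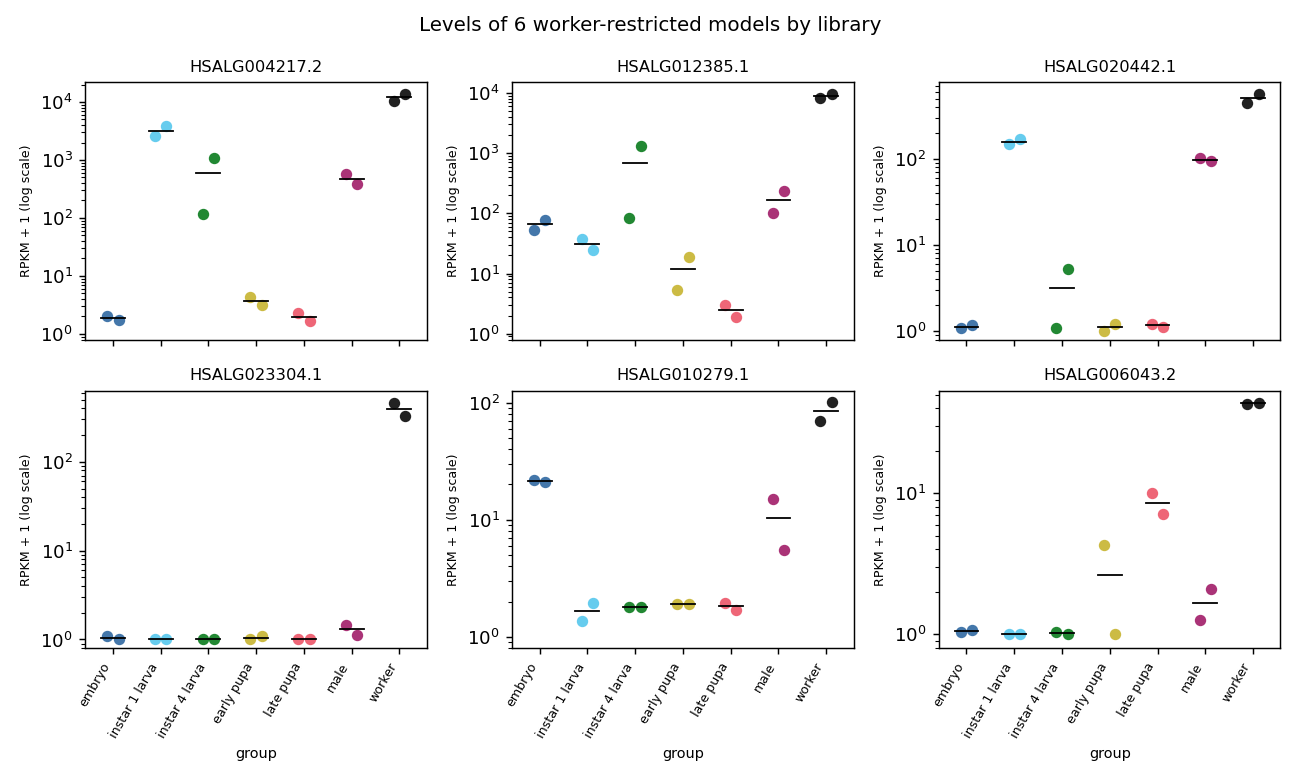
Levels (vertical axes, RPKM + 1, log scale) of 6 of the models in each library, by group, with a horizontal bar at the mean of the 2 libraries. HSALG004217.2 and HSALG020442.1 are high in instar 1 larvae and males and near 1 RPKM or below in embryos and late pupae, and HSALG023304.1 is near 0 in all groups but workers.

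From instar 1 to instar 4 the models were called in both directions. Of the 78, 7 were higher in instar 4 larvae, against 4.19% of all models, and 8 were lower, against 20.8% (25.0% in both directions). The median log2 difference was 0.15 over the 78 and −0.36 over all models. In the instar 4 libraries 10 gene models took 60.4% and 61.4% of the reads in genes, which lowers the RPKM of all others. The 10 highest took 43.9% and 32.7% in late pupae, and 10.5% and 17.8% in males. The part of such uneven shares in this result and in the comparisons below was not tested.

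HSALG020442.1 fell, from 150 and 168 RPKM in instar 1 larvae to 0.0825 and 4.30 RPKM in instar 4 larvae (log2 difference −6.06 ± 0.59; limma, adjusted p = 0.00071). HSALG021306.1 fell from 19.0 and 21.8 RPKM to 0.986 and 0.684 RPKM (−3.54 ± 0.77, adjusted p = 0.00847). The largest increase was that of HSALG012385.1 (3.44 ± 1.07, adjusted p = 0.0387), whose instar 4 replicates of 81.6 and 1297 RPKM are given above. HSALG002376.1 rose from 0.351 and 0.0505 RPKM to 5.16 and 4.04 RPKM (2.23 ± 0.61, adjusted p = 0.023).

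Leaving out any 1 of the 4 libraries compared gave fewer calls, among the 78 and among all models alike. The median log2 difference was then between 0.05 and 0.27 over the 78, and between −0.53 and −0.20 over all models. The call on HSALG012385.1 was lost under 13 alternatives (adjusted p = 0.296 without instar 4 larva replicate 2), that on HSALG002376.1 without any 1 of the 4 libraries (up to 0.125) and that on HSALG021306.1 without instar 1 larva replicate 2 or either instar 4 library (up to 0.0631). Median scaling gave 11 higher and 7 lower (23.1% of the 78, against 26.6% of all) with a median of all models of 0.02. Quantile normalization gave 13 and 6 (24.4%, against 23.9%), and RPKM per reads in genes gave 3 and 8 (14.1%, against 32.4%).

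Between instar 4 larvae and late pupae the balance of increases and decreases depended on the fit. In late pupae 11 of the 78 models were lower, against 2.01% of all models, and 3 were higher, against 2.56% (4.57% in both directions). Decreases of at least 16-fold were found in 7, and the share of all models with such decreases was not counted. All of these but HSALG005182.1 were listed above for instar 4 replicates at least 4-fold apart. The median log2 difference was 0.34 over the 78 and 0.36 over all models, so the medians lay close together.

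HSALG004217.2 fell from 118 and 1094 RPKM in instar 4 larvae to 1.26 and 0.667 RPKM in late pupae (log2 difference −7.54 ± 0.80; limma, adjusted p = 0.00187). HSALG012385.1 fell from 81.6 and 1297 RPKM to 2.05 and 0.898 RPKM (−7.09 ± 1.07, adjusted p = 0.00947). HSALG006043.2 had 1 read in instar 4 larva replicate 1 and 0 in replicate 2, and 9.07 and 6.09 RPKM in late pupae (3.05 ± 0.57, adjusted p = 0.0235). HSALG011693.2 rose from 2.98 and 3.68 RPKM to 31.0 and 13.4 RPKM (2.31 ± 0.55, adjusted p = 0.0433).

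A fit of only the 4 libraries compared gave 19 higher, against 21.2% of all models, and 14 lower, against 7.23% (28.4% in both directions). Library weights gave 27 higher, against 29.7%, and 18 lower, against 8.82% (38.6% in both directions). Increases thus outnumbered decreases in both fits, among the 78 models and among all models alike. Without both early pupa libraries the 14 calls came to 30, with 15 in each direction (38.5% of the 78, against 17.5% of all). Calls also rose without either early pupa library. They became fewer without any 1 library of embryos, instar 1 larvae, instar 4 larvae or late pupae. Both shifts held among the 78 and among all models alike. Without late pupa replicate 1 the median log2 difference was 0 over the 78 and 0.43 over all models, and without replicate 2 it was 0.59 and 0.28. The call on HSALG012385.1 was lost without either late pupa library (up to 0.063), and those on HSALG006043.2 and HSALG011693.2 under 7 and 12 alternatives (up to 0.171 and 0.245), among them each of the 4 libraries compared and either instar 1 library. Median scaling gave 1 higher and 11 lower, against 1.44% and 2.37% of all, with medians of −0.14 over the models and −0.13 over all. Quantile normalization gave 6 and 13, against 4.38% and 3.93%, and RPKM per reads in genes gave 5 and 8, against 5.3% and 1.6%.

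Many of the tested models were higher in males than in late pupae. Of the 78, 27 were higher in males, against 10.7% of all models, and 1 was lower, against 5.31% (16.0% in both directions). The median log2 difference was 0.92 over the 78 models and 0.03 over all models, and 65 of the 78 had a positive difference. The share of all models with a positive difference was not counted. All 6 models that reached an RPKM of 1 in males alone were among the 27. Without these 6, a count added after the data were seen, 21 of 72 were higher and 1 was lower, the median was 0.81 and 59 of 72 were positive. Any model with an RPKM of 1 in both males and only 1 other library stayed among the 72. Such a model also needed males to pass the filter, so the 72 may not be free of this choice. Increases of at least 16-fold in RPKM + 1 were found in 9 of the 78 and 7 of the 72. The share of all models with such increases was not counted.

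HSALG004217.2 stood at 565 and 383 RPKM in males against 1.26 and 0.667 RPKM in late pupae (log2 difference 7.91 ± 0.80; limma, adjusted p = 0.000211). HSALG004219.2 had 246 and 116 RPKM in males and 0.335 and 0 RPKM in late pupae (7.20 ± 0.75, adjusted p = 0.000248). The only model called lower was HSALG006043.2, at 0.268 and 1.09 RPKM in males against 9.07 and 6.09 RPKM in late pupae (−2.38 ± 0.57, adjusted p = 0.0214).

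This comparison of the 4 libraries of males and late pupae kept its direction under both scalings. Median scaling gave 26 higher, against 14.1% of all models, and 1 lower, against 9.42%. Quantile normalization gave 28 higher, against 11.1%, and 2 lower, against 10.6%. Fewer models were called without any 1 of these 4 libraries, among the 78 and among all models alike. The median log2 difference was then between 0.67 and 1.44 over the 78, and between −0.13 and 0.18 over all models. The call on HSALG006043.2 was lost without any 1 of these 4 libraries. Embryos, instar 1 larvae, instar 4 larvae and late pupae each enter 1 or 2 of the 4 comparisons, so neighbouring comparisons share libraries and are not independent of each other.

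**Figure D5:**
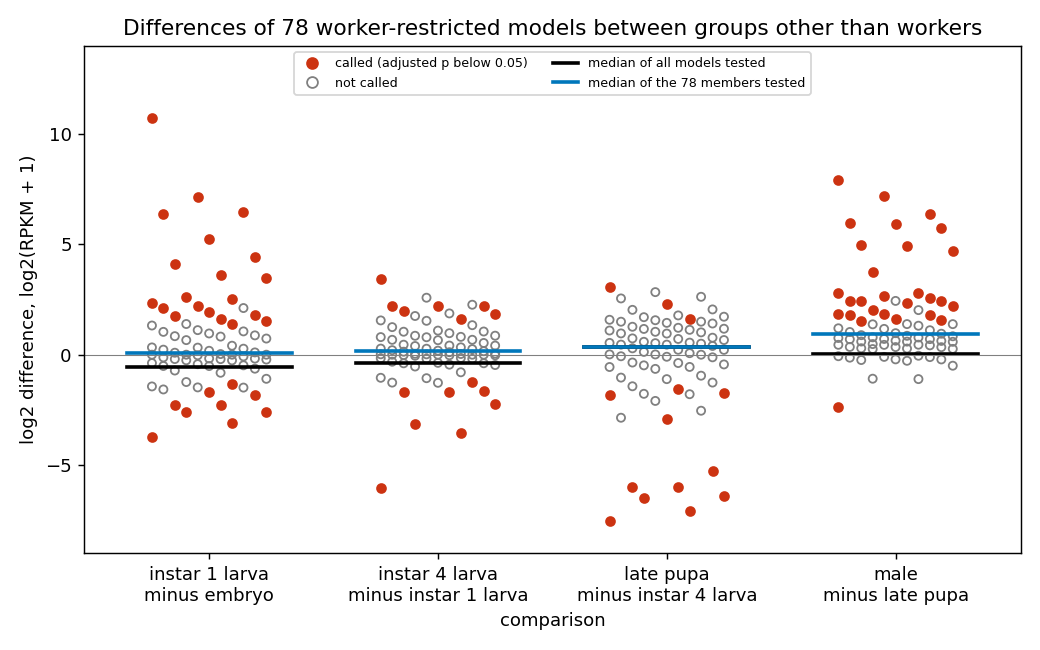
Log2 difference of RPKM + 1 (vertical axis) for the 78 tested models in the 4 comparisons among groups other than workers, with called models filled, the median of the 78 as a blue line and the median of all 12329 models as a black line. Calls in males against late pupae are 27 above and 1 below 0, and the 7 lowest calls of late pupae against instar 4 larvae lie below a log2 difference of −4.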

How the data were processed

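Whole-body poly(A) RNA libraries were strand-specific, per the labels' protocols. The authors deposited RPKM values for 20755 gene models in 14 libraries. Per the submitters' processing notes the tools were STAR 2.5.0b and DESeq2, whose roles are not stated. What counted the reads, on which build and with which gene lengths, is not given in the sources used here.

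RPKM values are not counts, and no count model was fitted. Reads per model were resolved by searching the smallest whole-number length that turns all RPKM values of a model into whole reads (relative tolerance 1e-05, or 0.0002 reads), which succeeded for 18543 of the 18543 models above 0. Library denominators came to between 11378690 and 40062881 reads. Without molecular identifiers, reads are not independent molecules.

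For models at RPKM 1 or more in at least 2 of the 12 libraries of the 6 groups other than workers, limma 3.58.1 (R 4.3.3) was run on log2(RPKM + 1), with a variance trend and two-sided tests. All 12 libraries share 1 spread per model. Log2 differences with this pseudocount understate changes of low models. The steps were tested on simulated data. Other steps used Python 3.11.15.

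Named models are the 2 highest in workers, the 2 with the largest margin, the 2 highest among those with at most 3 reads in each other library, the 2 on each side of the threshold, the leading model of each next-highest group, up to 2 called higher and 2 called lower per comparison (largest log2 difference, at least 2-fold, no overlap), the 2 with the widest worker difference, and the longest identifier run. Others are said to be chosen after their values were seen. The members and lists were chosen with earlier results of these data known.

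Alternatives were pseudocounts of 0.1 and 0.01, margins of 0 and 2, no filter, a mean RPKM of 5, 2 scalings, no variance trend, a replicate block, all 14 libraries, fits of the 4 libraries compared, library weights, fits without early pupae, leaving out each library and, chosen after seeing the data, RPKM per reads in genes. The main fit did not treat replicates with the same number as pairs, since the labels do not say what the numbers stand for.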

Additional observations from a re-analysis of the deposited data

How the results depend on the processing

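Of 143 recomputed counts 113 stayed within 1.5 times the count reported, and of 357 recomputed values of named models 308 kept their call, 49 lost it and 0 reversed. A margin of 2 left 40 models and a margin of 0 gave 483, while the pseudocounts of 0.1 and 0.01 gave 121 and 132, median scaling 103, quantile normalization 88, RPKM per reads in genes 75 (an alternative chosen after seeing the data, with 73 shared) and leaving out a library 99 to 146. Calls in instar 1 larvae against embryos numbered 10 in a fit of the 4 libraries compared, 18 with library weights and 7 to 35 when 1 library was left out. Instar 4 against instar 1 gave 9 with a mean RPKM of at least 5 and 6 to 20 without 1 library. Late pupae against instar 4 gave 7 of the 97 tested with no filter (7.22%, against 0.989%). Without both early pupa libraries it gave 30 (38.5%, against 17.5%). A fit of the 4 libraries gave 33 (42.3%, against 28.4%), with 19 higher and 14 lower. Library weights gave 45 (57.7%, against 38.6%), with 27 higher and 18 lower. Males against late pupae gave 13 with a mean RPKM of at least 5 and 14 to 32 without 1 library. Models varying over the 6 groups numbered 39 of the 44 tested with a mean RPKM of at least 5 (88.6%, against 77.3%). Leaving out 1 library moved the calls in each of the 4 comparisons, and the number varying, both down and up. A filter at a mean RPKM of 5 tests fewer models, and the cause of the other shifts was not tested. Over 15 pairs of groups, same-numbered replicates had correlations of their deviations between −0.26 and 0.15, with 1 above 0.1. A factor shared by same-numbered libraries could act differently by stage, so these values cannot decide whether they were paired. With a replicate block the 4 comparisons had 27, 14, 15 and 29 calls, against 22.7%, 24.7%, 5.02% and 14.8% of all models. In that fit 63 of the 78 varied, against 61.9%. With 2 libraries a group, smaller differences may be missed, and models at a few reads have no usable fold.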
